A study of Sus scrofa with 12 samples.

Results

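The posterior HOX genes HOXA9, HOXA10, HOXA11, HOXC9, HOXC10, HOXC11, HOXD9 and HOXD10 and the hindlimb factors PITX1 and TBX4 were examined in newborn pigs, in the Biceps femoris, a hindlimb muscle that forms part of the ham. A row of the expression table counted as one of these genes when its pig gene symbol was one of the 10 names. There were 8 such rows among 22861 genes, and HOXC9 and PITX1 were not analysed here. The animals were male piglets of postnatal day 1, all born to pure Iberian sows. They were either pure Iberian (IB, n = 6), from Iberian boars, or Iberian x Duroc (IBxDU, n = 5), from Duroc boars. The labels name 1 more IBxDU animal, for which there was no column, and it is not analysed here. The authors discarded 1 IBxDU pig, without giving its label, because it lay far from its group when the samples were clustered. No treatment of the animals is named in the labels. By the methods of the study, the animals of a type were more than the litters they came from, so the IB animals include littermates, but which animals share a litter is not given in the sources used here. Every p-value below treats the animals as independent.

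HOX genes encode homeodomain transcription factors and lie in 4 clusters, HOXA to HOXD. Genes near the end of a cluster, those of the higher paralogue groups, are switched on in the posterior trunk and in the distal parts of the limbs, and connective tissue cells and satellite cells keep a HOX code of their position after birth. PITX1 and TBX4 are the factors that mark the hindlimb bud, while TBX5 marks the forelimb bud. Groups 9 and 10 are associated with the upper segment of the limb and group 11 with the middle segment, as worked out mainly in mice.

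Values are RPKM, reads per kilobase of exon scaled to the mapped reads of the animal, and levels of different genes were compared only on this scale, which corrects for length. The length used for each gene is that of its model in the annotation used by the authors. A short model therefore affects the rank of a gene, whereas the length itself is the same in every animal. Whether the part of a transcript covered by a short model was read alike in all animals was not tested. The deposited values were whole multiples of 1 read for all 16953 genes above 0, to within 0.01 reads, and gave 18518497 to 33544359 mapped reads per animal. By the read number and mapped share that the paper reports, more reads were mapped. A read here may therefore stand for a pair of reads, which was not tested. Between 10819 and 12025 genes per animal were above 0.5 RPKM, and IB-503 and IBxDU-426 had both the largest depth and the fewest such genes. The muscle label was borne out by ACTA1, the skeletal alpha-actin, at 18623 to 42761 RPKM. The leukocyte markers summed to 2.07 to 4.87 RPKM in IB and 1.67 to 45.5 RPKM in IBxDU, and the adipocyte markers to 0.342 to 47.7 RPKM in IB and 2.72 to 89.9 RPKM in IBxDU, with overlapping ranges in both cases. The upper ends in IBxDU were set by 1 library, IBxDU-402, and the other 4 IBxDU animals reached 5.03 RPKM for the leukocyte and 27.8 RPKM for the adipocyte markers. IBxDU-402 was also the highest IBxDU animal for HOXC10, HOXD9 and HOXA11, and the part of this library's composition in those levels was not tested.

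The muscle of both genetic types expressed HOXA10, HOXC10 and HOXD9 clearly, HOXC11 and HOXA11 weakly, and HOXA9, HOXD10 and TBX4 hardly at all. In whole muscle, fewer cells of a type and less RNA per cell cannot be told apart. The first 5 had group means above 0.5 RPKM, the expression threshold of the study, in IB and in IBxDU alike. HOXA10, HOXC10, HOXD9 and HOXC11 were above 0.5 RPKM in 11 of 11 animals and HOXA11 in 7 of 11. HOXA9, HOXD10 and TBX4 were above it in 0 of 11. Expression was thus found for 5 of the 7 posterior HOX genes in the table and not for TBX4, which reached no more than 7 reads in any animal, while PITX1 was not analysed here. No muscle of another position was measured, so these levels do not show that the genes mark the hindlimb.

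HOXA10, a group 10 gene, was the most abundant of them. Its level in IB was 10.3 RPKM at the lowest, 12.1 at the median and 17.0 at the highest. In the 5 IBxDU animals it was 10.5, 11.1, 11.8, 15.7 and 17.6 RPKM. Both groups held animals near 10 and near 17 RPKM, and their ranges overlapped almost entirely. The mean was 12.5 ± 2.41 RPKM in IB (SD, n = 6) and 13.3 ± 3.13 in IBxDU (SD, n = 5), over an exon model of only 539 bases and 118 to 226 reads per animal. The lowest value of each group came from IB-503 and IBxDU-426, the deepest library of each type.

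HOXC10, the group 10 gene of the HOXC cluster, which is known from other mammals as a gene of hindlimb and posterior trunk, had the next highest mean. Its level in IB ran from 7.65 RPKM over a median of 9.15 to 16.4. In IBxDU it was 6.88, 8.98, 9.51, 10.6 and 13.6 RPKM. The 2 highest IB animals, IB-323 and IB-330, and the highest IBxDU animal, IBxDU-402, stood above the rest, which lay between 6.88 and 10.6 RPKM. The means were 10.7 ± 3.54 RPKM in IB (SD, n = 6) and 9.92 ± 2.48 in IBxDU (SD, n = 5). HOXA10 was above HOXC10 in 8 of 11 animals, and the order of these neighbours was reversed in IB-323, IB-330 and IBxDU-402. Per animal, HOXC10 stood at 0.866 ± 0.305 of HOXA10 in IB (SD, n = 6) and at 0.768 ± 0.242 in IBxDU (SD, n = 5).

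HOXD9, a group 9 gene, followed. In IB it ran from 4.03 RPKM over a median of 4.92 to 6.92, and in IBxDU it was 3.46, 4.09, 4.64, 5.16 and 6.16 RPKM. It was below HOXC10 in 11 of 11 animals and above HOXC11 in 11 of 11, so its place in the order did not depend on the animal. Its 139 to 319 reads per animal may include some from HOXD10 or HOXD11, since both loci overlap HOXD9 in the RefSeq annotation (Sscrofa11.1). The strand setting of the counting is not given in the sources used here, and HOXD11 was not analysed here. HOXD10 itself held 0 to 7 reads, and how reads of a shared stretch were assigned was not tested.

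The group 11 genes, HOXC11 and HOXA11, were lower than HOXD9 in 11 of 11 animals. HOXC11 ran in IB from 0.507 RPKM over a median of 0.884 to 1.22, and was 0.669, 0.865, 1.11, 1.15 and 1.51 RPKM in IBxDU. HOXA11 ran in IB from 0.330 RPKM over a median of 0.484 to 1.12, and was 0.383, 0.606, 0.684, 0.919 and 1.10 RPKM in IBxDU. HOXC11 was the higher in 9 of 11 animals, and the ranges of both groups overlapped for both genes. These levels rest on 8 to 20 reads for HOXC11 and 18 to 59 reads for HOXA11 per animal, so counting error alone is sizeable. Relative to the group 10 gene of the same cluster, HOXA11 stood at 0.0473 ± 0.0252 of HOXA10 in IB (SD, n = 6) and 0.0593 ± 0.0287 in IBxDU (SD, n = 5). The corresponding ratio of HOXC11 to HOXC10 was 0.0841 ± 0.0197 and 0.113 ± 0.0459.

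HOXA9, HOXD10 and TBX4 were near the limit of detection. HOXA9 had 0 to 6 reads per animal, 9 in all IB and 15 in all IBxDU animals, and was at 0 in IB-345, IB-431 and IBxDU-412. HOXD10 had 0 to 7 reads, 9 in all IB and 16 in all IBxDU animals, and was at 0 in IB-345 and IBxDU-427. A count of 0 still allows 3 reads, which at these depths would be 0.145 to 0.154 RPKM for HOXA9 and 0.124 to 0.138 RPKM for HOXD10, counting error only. TBX4 had 1 to 7 reads, 11 in all IB and 15 in all IBxDU animals, out of 149026523 and 117230322 mapped reads. The order of these genes could not be told from such counts, as HOXA9 was above HOXD10 in 6 of 11 animals and HOXD10 above TBX4 in 8 of 11. TBX5, the forelimb factor, named here after its values were seen, had a mean of 0.186 RPKM against 0.0616 for TBX4, with 0 to 14 reads, and was likewise above 0.5 RPKM in 0 of 11 animals.

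**Figure D1:**
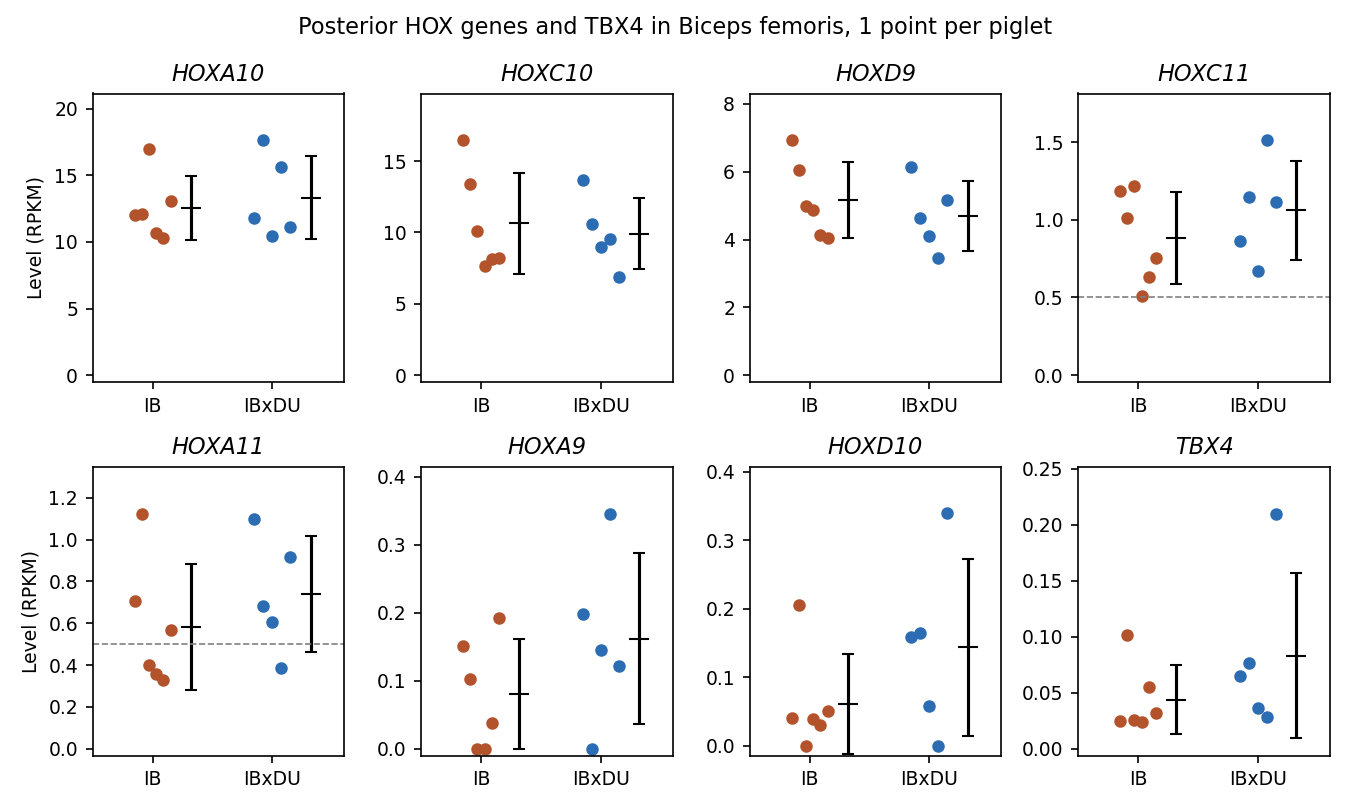
Level in RPKM (vertical axes, linear, each gene on its own scale) of the 8 genes in the table, with 1 point per piglet for IB (n = 6) and IBxDU (n = 5), and beside them the group mean with bars of 1 SD. The dashed line marks 0.5 RPKM where it falls within the range. The groups overlap in every panel, and the 3 panels of HOXA9, HOXD10 and TBX4 stay at or below 0.345 RPKM.

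The summed level of the 7 posterior HOX genes was 29.9 ± 5.87 RPKM in IB (SD, n = 6; 23.5 to 37.5) and 30.1 ± 4.57 RPKM in IBxDU (SD, n = 5; 25.0 to 34.8). HOXA10 and HOXC10 together made up 77.5% ± 2.11 of it in IB (SD, n = 6) and 77.1% ± 4.66 in IBxDU (SD, n = 5). Among these 7 genes, the group 10 genes of 2 clusters therefore held most of the summed RPKM in both genetic types. HOXC9, HOXB9, HOXD11, HOXA13 and HOXD13 were not analysed here and are not in the sum. The share also depends on the exon lengths used. In reads over all animals, HOXD9 had 2472, HOXC10 2293 and HOXA10 1825. The variation between animals of one type was wider for the sum than the difference of the means.

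Whether the Duroc cross changed this positional code was asked with limma on log2(RPKM + 0.1), in which the genetic type was the only effect. No difference between IB and IBxDU passed the test. In limma, 0 of the 5 genes tested passed an adjusted p of 0.05 (Benjamini-Hochberg over 11875 genes), against a background of 2 genes, or 0.0168%. At an unadjusted p under 0.05 there were 0 of 5, where 8.03% of all genes tested were (6.0% with the higher level in IBxDU, 2.02% with the higher level in IB), and with limma voom on the recovered reads also 0 of 5. For 0 of 5 genes were the animals of the groups separated without overlap, against 1.04% of all genes, and by the rule of the study, an unadjusted p up to 0.01 with a fold of at least 1.5, there were 0 of 5 against 1.51%. With so small a set these shares do not tell it apart from the background.

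Differences are log2 fold changes, IBxDU minus IB, on the log2(RPKM + 0.1) scale, which understates changes of low genes. For HOXA10 the difference was 0.08 (SE 0.19, 95% interval -0.33 to 0.49, limma adjusted p = 0.910). It turned to -0.04 with either of the other scalings, by upper quartile or by median of ratios, and its sign also turned, to -0.03, when IBxDU-412 was left out. For HOXC10 it was -0.08 (SE 0.24, 95% interval -0.59 to 0.43, limma adjusted p = 0.931), and the sign turned when IB-323, IB-330 or IBxDU-429 was left out (0.059, 0.0004 and 0.044). For HOXD9 it was -0.13 (SE 0.20, 95% interval -0.57 to 0.30, limma adjusted p = 0.860). As a fold of IBxDU over IB on the same scale, the intervals of these 3 genes ran from 0.666 (HOXC10) to 1.40 (HOXA10), and changes within them could not be told from none.

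The intervals were wider for the group 11 genes. HOXC11 had a difference of 0.25 (SE 0.29, 95% interval -0.38 to 0.88, limma adjusted p = 0.816) and HOXA11 of 0.34 (SE 0.35, 95% interval -0.42 to 1.09, limma adjusted p = 0.798). Of all genes tested, 18.3% had a narrower interval than HOXA10, 25.5% than HOXD9 and 40.7% than HOXC10, but 62.3% than HOXC11 and 77.9% than HOXA11. HOXA10 and HOXD9 were thus among the better resolved genes of the table, and for HOXA11 even a fold of 2.13, the upper end of its interval, could not be told from none. HOXA11 had the wider interval although it had more reads than HOXC11.

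Of the 5 genes, 3 had a higher mean log2 level in IBxDU, as had 66.9% of all genes tested, and their median difference was 0.08 beside 0.13 for all genes. This all-gene shift towards IBxDU was 0.01 after either of the other scalings. Relative to that median, HOXA11 and HOXC11 lay above it by 0.21 and 0.12, and HOXA10, HOXC10 and HOXD9 lay below it, at -0.05, -0.20 and -0.26. After either scaling, 2 of the 5 had a higher mean log2 level in IBxDU.

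For the genes under the filter, exact two-sided permutation tests over all 462 relabelings, of which the smallest possible p is 0.00433, gave p = 0.290 for HOXA9, p = 0.242 for HOXD10 and p = 0.286 for TBX4. The same exact permutation test gave p between 0.342 and 0.779 for the 5 expressed genes. In a limma fit without the filter, the adjusted p was 0.783 for HOXA9, 0.755 for HOXD10 and 0.786 for TBX4. A difference in these 3 genes was not detectable at this depth.

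**Figure D2:**
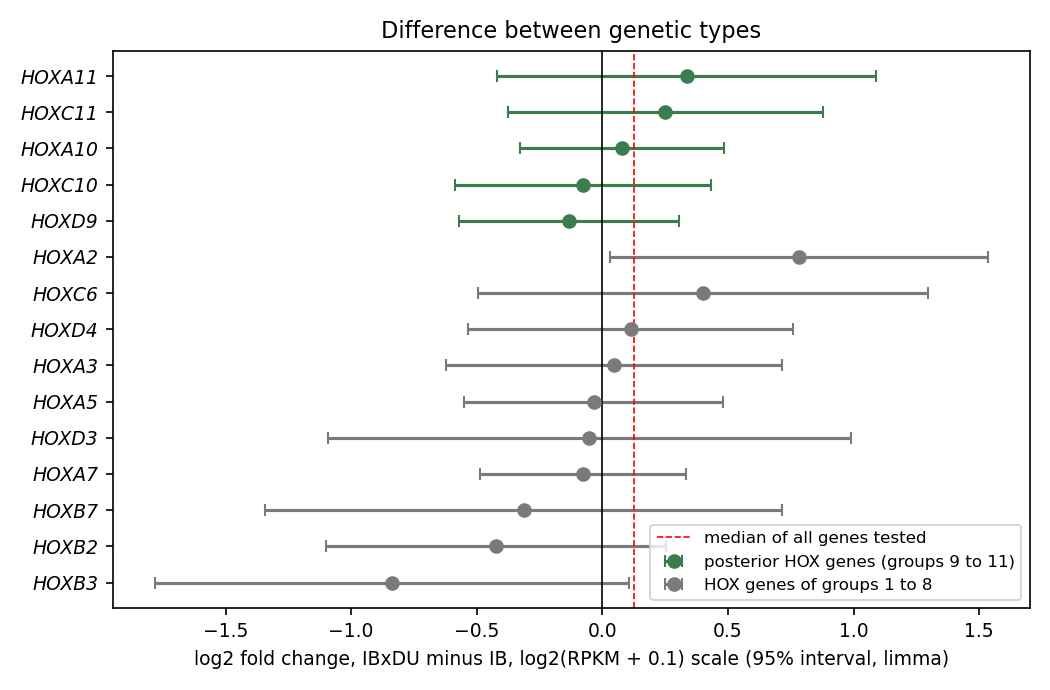
Log2 fold change, IBxDU minus IB, on the log2(RPKM + 0.1) scale (horizontal axis) with its 95% interval from limma for the 5 posterior HOX genes (green) and the 10 HOX genes of groups 1 to 8 (grey) that were tested. The red dashed line is the median of all genes tested, 0.13. All 5 green intervals include 0, and the sign of HOXA10 turns under the other scalings.

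As markers of other cells can move with the genetic type, they were set beside these results. Of the epidermis list 3 of 5 genes were in the table, and KRT10, an epidermal keratin, and CLDN7, an epithelial tight junction protein, were the 2 tested. They had unadjusted limma p-values under 0.05 and were lower in IBxDU without overlap, but their adjusted p was 0.515 and 0.405. Of all genes tested, 2.02% had such an unadjusted p with the higher level in IB, and 1.04% did not overlap. In the other marker lists, 0 of the genes tested had an unadjusted limma p under 0.05 or groups without overlap. The epidermis list summed to 3.72 to 7.18 RPKM in IB and 1.55 to 3.15 RPKM in IBxDU, with EPCAM at 0 to 0.0720 RPKM. Its part in the levels of the HOX genes was not tested.

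The posterior genes belong to a wider HOX profile. Of the HOX genes 28 were in the table, and 15 of them passed the filter. By cluster, 6 of 8 HOXA genes passed with a summed mean of 35.2 RPKM over all 8, 3 of 5 HOXC genes with 12.0, 3 of 6 HOXD genes with 11.2 and 3 of 9 HOXB genes with 4.35. Among the genes in the table the HOXA cluster had the largest sum, but HOXC4, HOXC5, HOXC8 and HOXC9 were not analysed here, so the clusters cannot be ranked as a whole. HOXA10 at 12.9 ± 2.65 RPKM (SD, n = 11) and HOXA7 at 10.6 ± 2.12 lay on either side of HOXA9, at 0.117 ± 0.107.

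Of the other posterior HOX genes 4 of 8 were in the table, all of groups 12 and 13, and 0 of 4 passed the filter. HOXA13 and HOXD13, the limb genes of group 13, were not analysed here. HOXC13, a gene of the last paralogue group known for its role in hair and nail, had at most 2 reads in an animal. HOXB13, HOXC12 and HOXD12 had 0 reads in 11 of 11 animals, where 3 reads among 266256845 mapped reads would be the limit that a count of 0 allows. PDGFRA, a marker of fibroblasts, was also at 0 in all animals, so a 0 in this table need not mean a silent gene.

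**Figure D3:**
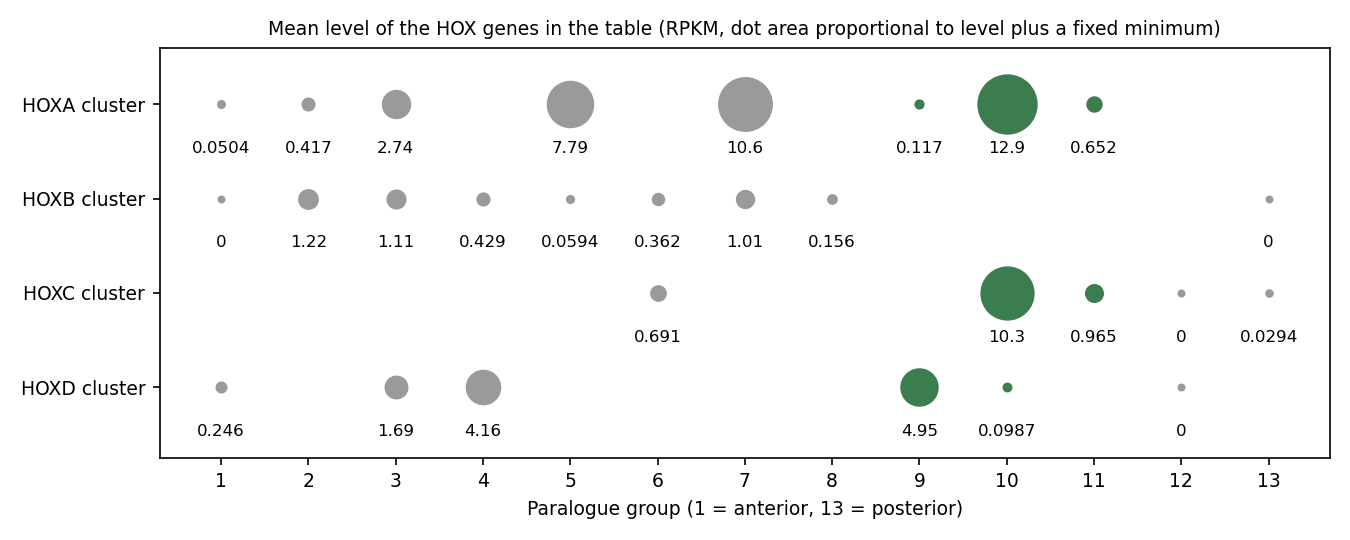
Mean level over 11 animals of the 28 HOX genes in the table, by cluster (rows) and paralogue group (horizontal axis, 1 anterior to 13 posterior), with dot area proportional to RPKM plus a fixed minimum and the RPKM printed below each dot. Green dots are the 7 posterior HOX genes described, and empty positions are paralogues that do not exist or were not analysed. The largest dots are HOXA10 at 12.9, HOXA7 at 10.6 and HOXC10 at 10.3 RPKM, and groups 12 and 13 are at or near 0.

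Of the anterior and central HOX genes, groups 1 to 8, 17 of 23 were in the table and 10 were tested. In limma 0 of 10 passed the adjusted threshold and 1 of 10 had an unadjusted p under 0.05, beside 8.03% of all genes. The highest were HOXA7, HOXA5 at 7.79 RPKM, HOXD4 at 4.16 and HOXA3 at 2.74. The loci of HOXA5 and HOXA3 overlap each other and neighbouring HOXA loci in the RefSeq annotation. HOXA2, the anterior gene with the unadjusted p under 0.05, had a mean of 0.281 RPKM in IB and 0.581 in IBxDU (log2 difference 0.78, SE 0.35, limma adjusted p = 0.609). It entered the test only through its IBxDU mean. HOXB3 was at 1.47 ± 0.877 RPKM in IB (SD, n = 6) and 0.689 ± 0.324 in IBxDU (SD, n = 5), with a limma adjusted p of 0.620. The median difference of the 10 genes was -0.04, where that of the 5 posterior genes was 0.08 and that of all genes 0.13. Relative to the all-gene median, 8 of the 10 lay below it under each of the 3 scalings.

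HOX proteins bind DNA with partners of the PBX and MEIS families. Of these cofactors 5 of 9 were in the table and 3 were tested. In limma 0 of 3 had an unadjusted p under 0.05, beside 8.03% of all genes. PKNOX2, a MEIS relative, was at 18.0 ± 4.37 RPKM (SD, n = 11), PBX2 at 11.5 ± 2.28 and PBX3 at 1.03 ± 0.421. MEIS2 was under the filter at 0.154 ± 0.139. The cofactors PBX2 and PKNOX2 were therefore present in the same range as HOXA10 and HOXC10.

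Of the genes that pattern the limb bud 20 of 33 were in the table and 14 were tested. In limma 0 of 14 passed the adjusted threshold and 1 of 14 had an unadjusted p under 0.05, beside 8.03% of all genes. With so few genes the list is not told apart from that background. The gene at that p was ETV4, an ETS factor downstream of FGF signals. It had a median of 10.6 RPKM in IB and 5.96 in IBxDU and overlapping ranges (log2 difference -0.64, SE 0.26, limma adjusted p = 0.572). The highest of the list was PITX3, a PITX1 relative known in mice from differentiating muscle, at 20.3 ± 6.93 RPKM (SD, n = 11; 10.8 to 34.3). PRRX2, a homeobox gene of limb mesenchyme, was at 3.91 ± 1.53 RPKM in IB (SD, n = 6) and 7.22 ± 4.29 in IBxDU (SD, n = 5; limma adjusted p = 0.616). Its ranges overlapped, and its highest value, 12.7 RPKM, was that of IBxDU-402. TBX2, a T-box repressor, was at 3.10 ± 0.962 RPKM over all animals. SHH, the signal of the posterior limb bud, and LHX9, both named after their values were seen, had 0 reads in 11 of 11 animals. Relative to the all-gene median, 7 lay above and 7 below.

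Polycomb and Trithorax proteins hold HOX genes in their silent or active state. Of this list 21 of 26 genes were in the table and all 21 were tested. In limma 0 of 21 passed the adjusted threshold and 1 of 21 had an unadjusted p under 0.05. Of all genes tested, 8.03% had such a p, 6.0% with the higher level in IBxDU, so the list does not stand out. The gene at that p was EED, a core subunit of the Polycomb complex that methylates histone H3. It was at 6.40 RPKM in IB and 9.58 in IBxDU (log2 difference 0.54, SE 0.21, limma adjusted p = 0.569). The highest levels were those of PHC2 and RING1, subunits of the other Polycomb complex, at 28.8 and 23.1 RPKM, and of WDR5 and ASH2L, shared subunits of the Trithorax methyltransferases, at 15.3 and 11.2 RPKM. RBBP5, of the same methyltransferases, was at 3.21 ± 1.33 RPKM in IB (SD, n = 6) and 4.19 ± 0.304 in IBxDU (SD, n = 5; limma adjusted p = 0.653). Its ranges overlapped, and IB-503 was lowest at 1.11 RPKM, where the IB median was 3.67. Relative to the all-gene median, 10 of the list lay above and 11 below, close to an even split.

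Among the animals, the 5 expressed genes did not all vary together. Over 11 animals, which share library and depth between the genes of a pair, Pearson's r of the log2 levels lay between -0.17 and 0.71 in the 10 pairs. In permutation tests with 100000 resamples 3 pairs had an unadjusted p under 0.05 and 0 an adjusted p under 0.05. HOXA10 and HOXC11 had r = 0.71 (permutation p = 0.0169, adjusted p = 0.0935) and Spearman's rho = 0.75 (permutation p = 0.00990, adjusted p = 0.0990), and r was 0.73 without the 2 animals farthest from the HOXA10 median. HOXC10 and HOXD9 had r = 0.69 (permutation p = 0.0187, adjusted p = 0.0935) and rho = 0.51 (permutation p = 0.114, adjusted p = 0.273). Without IB-323 and IBxDU-402, r of this pair was 0.34. It was 0.69 with the group means taken out (permutation adjusted p = 0.0669). After upper quartile scaling it was 0.78 (permutation adjusted p = 0.0506) and after median-of-ratios scaling 0.77 (permutation adjusted p = 0.0530).

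HOXA11 and HOXD9 had r = 0.65 (permutation p = 0.0322, adjusted p = 0.107) and rho = 0.66 (permutation p = 0.0308, adjusted p = 0.154), and r was 0.45 without IB-330 and IBxDU-402. With the group means taken out, r of this pair was 0.79 and passed (permutation adjusted p = 0.0459), whereas it was 0.57 after upper quartile scaling (permutation adjusted p = 0.220) and 0.50 after median-of-ratios scaling (permutation adjusted p = 0.392). HOXA10 and HOXD9 had r = -0.17 (permutation adjusted p = 0.730) and rho = -0.06 (permutation adjusted p = 0.861), and r was -0.25 without IB-345 and IBxDU-412.

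Since the connective tissue of a muscle carries a HOX code of its own, the genes were also set beside the mean standardised level of 7 fibroblast markers, COL1A2, COL3A1, COL6A3, DCN, LUM, TCF7L2 and OSR2, and of 7 muscle fibre markers. These 10 relations were chosen after the data had been seen. The fibroblast list had 8 of 11 genes in the table, with PDGFRA, a defining marker, at 0 in all animals, and summed to 1004 to 2685 RPKM in IB and 663 to 5785 RPKM in IBxDU. HOXD9 was higher in animals with more of the fibroblast markers, with r = 0.81 (permutation p = 0.00290, adjusted p = 0.0290) and rho = 0.86 (permutation p = 0.00113, adjusted p = 0.0113). Without the 2 animals farthest from the HOXD9 median, IB-323 and IBxDU-427, r was 0.90, and it was 0.86 with the group means taken out. As IBxDU-402 was highest in the markers, at 1.72 against 0.758 for the next animal, the relations were also computed without it, which was chosen after seeing the data. HOXD9 then had r = 0.80 (permutation adjusted p = 0.0464). The relation no longer passed after upper quartile scaling (r = 0.72, permutation adjusted p = 0.117) or median-of-ratios scaling (r = 0.60, permutation adjusted p = 0.177).

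HOXA11 had r = 0.71 with the same markers (permutation p = 0.0142, adjusted p = 0.0709) and rho = 0.78 (permutation p = 0.00613, adjusted p = 0.0306), and r was 0.49 without IB-330 and IBxDU-402. Without IBxDU-402 alone, r was 0.61 (permutation adjusted p = 0.321) and rho was 0.72 (permutation adjusted p = 0.116). After upper quartile scaling r was 0.67 (permutation adjusted p = 0.117) and after median-of-ratios scaling 0.62 (permutation adjusted p = 0.177). HOXC10 had r = 0.52 (permutation p = 0.1003, adjusted p = 0.293) and rho = 0.54 (permutation p = 0.0945, adjusted p = 0.315), and r was 0.26 without IB-323 and IBxDU-402 and 0.39 without IBxDU-402 alone. HOXC11 had r = 0.17 (permutation adjusted p = 0.830) and HOXA10 had r = 0.03 (permutation adjusted p = 0.930), with rho of 0.22 and 0.21. Whether the relation of HOXD9 differs from that of HOXA10 was not tested. With the muscle fibre markers, r lay between -0.20 and 0.50 as deposited, and 0 of 5 relations had an unadjusted permutation p under 0.05. The relation of HOXC10 had r = 0.64 after upper quartile scaling (permutation p = 0.0356, adjusted p = 0.119) and 0.63 after median-of-ratios scaling (permutation p = 0.0401, adjusted p = 0.177). That of HOXA10 was 0.21 as deposited and 0.52 and 0.53 after these scalings (permutation adjusted p = 0.239 and 0.223).

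**Figure D4:**
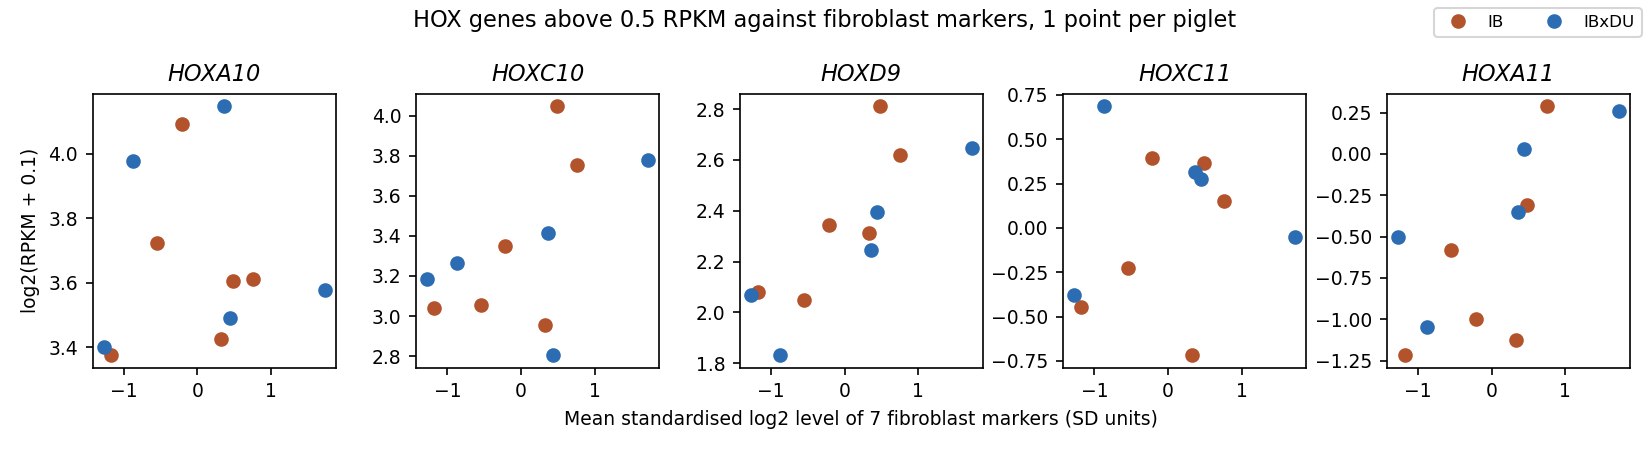
Log2(RPKM + 0.1) of the 5 HOX genes above 0.5 RPKM (vertical axes) against the mean standardised log2 level of 7 fibroblast markers in SD units (horizontal axis), with 1 point per piglet, IB in brown and IBxDU in blue (n = 11). The points of HOXD9 rise from IBxDU-426 at -1.27 to IBxDU-402 at 1.72 (r = 0.81 as deposited, 0.60 after median-of-ratios scaling), and those of HOXA10 show no slope (r = 0.03).

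The genes most like the mean standardised profile of the 5 HOX genes were ranked among 8109 named genes tested. NRDC, a metallopeptidase, led with r = 0.94 over 11 animals, followed by ELMOD3 with 0.93, CA2, a carbonic anhydrase, with 0.93, SETD6, a lysine methyltransferase, with 0.93 and CRAT, the carnitine acetyltransferase, with 0.92. These values describe a ranking over many genes and few animals. The nearest other HOX gene was HOXD3, at rank 62 with r = 0.83.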

How the data were processed

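The authors mapped paired RNA-seq reads of Biceps femoris to the annotated Sscrofa10.2 genome in CLC Genomics Workbench and deposited RPKM values, 1 for each gene in each animal (FPKM in the paper). The authors' p-value and fold change columns were not used. Gene symbols were known for 11450 of 22861 IDs. The genes and lists were chosen with earlier results of these data known. Mapped reads, exon lengths and read counts were recovered from the steps of the RPKM values.

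As the table holds RPKM, the count test of the study was replaced by limma 3.58.1 (trended, R 4.3.3) on log2(RPKM + 0.1), for genes whose mean exceeded 0.5 RPKM in IB or in IBxDU, with Benjamini-Hochberg adjustment at 0.05. Exact permutation tests and permutations of correlations (100000) were run with scipy 1.17.1, numpy 2.4.6 and pandas 2.3.3 under Python 3.11.15. The fits were tested on simulated data. Named are all 10 genes and, per list, the 4 of highest mean and the 2 of smallest p, and the 5 genes most alike. TBX5, SHH, LHX9 and marker genes were named in addition, after their values were seen. Alternatives were a pseudocount of 1, upper quartile and median-of-ratios scaling, no filter, other expression thresholds, the rule of the study, each animal left out and, added after seeing the data, limma voom on the recovered reads, the marker relations, also without IBxDU-402, and upper quartile scaling of the correlations.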

Additional observations from a re-analysis of the deposited data

Results flagged for a closer look

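Of 16 sets of values (8 genes in 2 genetic types) 2 had an animal set apart from the others by Dixon's test, which chance does in about 1 of 20 sets. HOXD10 in IB-330 was at 0.206 RPKM, where the next IB animal was at 0.0512. TBX4 in IBxDU-429 was at 0.210 RPKM, where the next IBxDU animal was at 0.0762. Both genes had at most 7 reads in any animal.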

How the results depend on the processing

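Of the 5 expressed HOX genes, 0 were called by adjusted p in the alternatives run, and of HOXA9, HOXD10 and TBX4, tested only without the filter (limma and limma voom), 0 were called. With single animals left out, the lowest adjusted limma p of the 5 expressed genes was 0.680. The difference of HOXA10 was -0.041 with upper quartile scaling and -0.040 with median-of-ratios scaling, and -0.028 to 0.17 with single animals left out, turning without IBxDU-412. That of HOXC10 was -0.20 to 0.06 with single animals left out, being 0.059 without IB-323, 0.0004 without IB-330 and 0.044 without IBxDU-429. HOXA11 stayed between 0.19 and 0.52, HOXC11 between 0.12 and 0.39 and HOXD9 between -0.24 and -0.03. The cause was not tested.

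Of all genes, 2 passed, 1 with upper quartile scaling, 1 with median-of-ratios scaling, 1 with limma voom, 1 to 2 with single animals left out, and 179 by the rule of the study (unadjusted p up to 0.01, fold of at least 1.5). Of pairs of HOX genes, 0 passed as deposited and 1 with values centred by group. At 0.1 RPKM 7 genes were expressed and at 1 RPKM 4. No paired analysis was possible because each sow was mated either to Iberian or to Duroc boars, so no litter held both types. HOXA9, HOXD10 and TBX4 had 7 reads at most, which limits what can be said of them. The cause of these low counts was not tested.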
